A study of Mus musculus with 5 samples.

Results

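The regions described here are compact H3K36me3 peaks of high score that occur in a single peak list. Trimethylation of lysine 36 on histone H3 (H3K36me3) was mapped by ChIP-seq in mTEClo, an epithelial cell population of the thymic medulla, from mice. The regions were chosen by their measured values: a peak score of 50 or more, a width of 1000 bp or less and no base shared with a peak of the other list. This rule selected 577 of 17474 peaks, namely 360 of 7231 in the list of series 1 (4.98%) and 217 of 10243 in the list of series 2 (2.12%). The lists were kept apart throughout, because the authors' scores are not normalized between them, and score, width and absence from the other list are given below as descriptions of the choice, with no test.

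The 5 samples were 2 ChIP libraries made with an antibody to H3K36me3, one in series 1 and one in series 2, and 3 input libraries made without antibody, of which 2 belong to series 1 and 1 to series 2. All came from wild-type B6 mice. mTEClo are medullary thymic epithelial cells, sorted for EpCAM and UEA-1 binding with low Ly51 and low CD80. The labels speak of individual mice without tying a mouse to a library, so animal, preparation and library cannot be told apart as sources of a difference between the lists. With 1 ChIP library per list no test over samples was possible.

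H3K36me3 is deposited by SETD2, which travels with elongating RNA polymerase II, so in most tissues the mark lies over the bodies of transcribed genes, is scarce at promoters and increases towards the 3′ end. It is usually spread over wide domains, is read by proteins of the PWWP domain family, and has been linked to splicing, DNA repair and the silencing of start sites inside genes. In the thymic medulla the epithelial cells express a very broad range of genes, including many whose products are otherwise limited to peripheral tissues.

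None of these compact peaks touched a RefSeq promoter window, although a small number of other peaks did. A window runs from 250 bases before to 50 bases after an annotated start of a gene. That start can lie inside the gene's span, and some genes have no window, so not every gene start is covered. In series 1 the count was 0 of 344 peaks on the chromosomes for which windows were used, which allows a share of up to 0.872%, and in series 2 it was 0 of 212, which allows up to 1.42%. Over all peaks the share was 0.217% in series 1 and 0.263% in series 2, so the zeros were within what the number of peaks can show. The 2 windows that came closest in each list are printed here, with those of the 4 genes that held such a peak in each list and have a window. Sequences are RefSeq's on GRCm38.p6, read 5′ to 3′ on the gene's strand, with each CpG in capitals.
4933439K11Rik: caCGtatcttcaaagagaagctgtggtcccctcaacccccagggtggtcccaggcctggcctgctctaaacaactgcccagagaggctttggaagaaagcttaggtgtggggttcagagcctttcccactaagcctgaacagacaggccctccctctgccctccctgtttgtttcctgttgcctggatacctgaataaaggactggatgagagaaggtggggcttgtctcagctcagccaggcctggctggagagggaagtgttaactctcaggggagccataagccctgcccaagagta
Gm42335: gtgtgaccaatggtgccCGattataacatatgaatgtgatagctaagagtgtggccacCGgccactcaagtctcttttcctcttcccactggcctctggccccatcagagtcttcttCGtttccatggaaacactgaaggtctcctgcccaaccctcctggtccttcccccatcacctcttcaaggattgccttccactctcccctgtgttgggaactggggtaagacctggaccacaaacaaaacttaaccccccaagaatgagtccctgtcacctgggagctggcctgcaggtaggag
Arhgap25: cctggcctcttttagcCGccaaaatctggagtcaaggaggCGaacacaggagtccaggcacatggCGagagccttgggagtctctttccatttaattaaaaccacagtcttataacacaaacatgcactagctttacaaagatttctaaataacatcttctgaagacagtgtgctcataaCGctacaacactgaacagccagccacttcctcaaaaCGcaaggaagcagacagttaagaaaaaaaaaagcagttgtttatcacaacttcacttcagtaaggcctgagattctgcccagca
Cacna1d: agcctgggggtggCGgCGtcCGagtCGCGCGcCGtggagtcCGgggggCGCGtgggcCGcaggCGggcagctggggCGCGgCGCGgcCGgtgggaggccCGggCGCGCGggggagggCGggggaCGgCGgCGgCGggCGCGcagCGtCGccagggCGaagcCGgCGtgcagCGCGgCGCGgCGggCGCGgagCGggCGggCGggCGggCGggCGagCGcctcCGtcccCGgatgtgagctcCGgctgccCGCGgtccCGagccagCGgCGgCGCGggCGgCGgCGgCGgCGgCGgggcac
Supt16: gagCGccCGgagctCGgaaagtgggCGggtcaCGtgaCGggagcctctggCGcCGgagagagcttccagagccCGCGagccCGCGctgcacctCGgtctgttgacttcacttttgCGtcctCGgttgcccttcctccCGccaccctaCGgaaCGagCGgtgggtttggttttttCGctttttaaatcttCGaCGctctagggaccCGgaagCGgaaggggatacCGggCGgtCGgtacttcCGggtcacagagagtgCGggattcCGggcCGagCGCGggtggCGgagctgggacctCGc
Kat2b: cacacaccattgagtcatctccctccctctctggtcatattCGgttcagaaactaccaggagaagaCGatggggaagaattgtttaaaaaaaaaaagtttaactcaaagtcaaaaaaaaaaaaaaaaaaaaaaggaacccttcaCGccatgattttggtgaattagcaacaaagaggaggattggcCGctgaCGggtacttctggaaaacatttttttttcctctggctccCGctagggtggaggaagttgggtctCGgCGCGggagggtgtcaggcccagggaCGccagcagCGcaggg
Dlg2: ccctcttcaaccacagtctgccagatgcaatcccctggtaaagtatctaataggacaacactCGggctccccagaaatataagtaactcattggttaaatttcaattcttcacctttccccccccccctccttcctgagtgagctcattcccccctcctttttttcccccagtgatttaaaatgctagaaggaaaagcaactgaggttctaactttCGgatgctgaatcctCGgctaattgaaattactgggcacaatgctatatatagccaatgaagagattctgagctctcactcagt
Tenm2: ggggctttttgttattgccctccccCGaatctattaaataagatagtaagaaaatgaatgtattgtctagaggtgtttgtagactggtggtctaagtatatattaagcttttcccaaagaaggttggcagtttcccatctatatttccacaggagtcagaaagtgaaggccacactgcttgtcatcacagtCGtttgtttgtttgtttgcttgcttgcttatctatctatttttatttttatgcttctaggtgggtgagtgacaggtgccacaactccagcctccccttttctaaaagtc

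The window of 4933439K11Rik, a long noncoding RNA gene, lies at chr1:172550757-172551056 on the minus strand and holds 1 CpG. A series 1 peak of score 55 (chr1:172551285-172551510) lay 229 bp from it, the shortest such distance in that list. The next was 355 bp, from a peak of score 52 in Arhgef10l (chr4:140605511-140605788) to the window of Gm42335 at chr4:140604857-140605156 on the plus strand, with 3 CpG. In series 2 the shortest was 1045 bp, from a peak of score 58 (chr6:87531771-87532165) to the window of Arhgap25, a GTPase-activating protein for the Rac family, at chr6:87533210-87533509 on the minus strand with 5 CpG. The Cacna1d window, a start inside this L-type calcium channel gene at chr14:30353437-30353736 on the minus strand, is far richer, with 63 CpG in 300 bases, and a series 2 peak of score 135 lay 1839 bp away. The windows of Supt16 (chr14:52197190-52197489, minus strand) and Kat2b (chr17:53566721-53567020, plus strand) hold 35 and 11 CpG. Those of Dlg2 (chr7:91090536-91090835, plus strand) and Tenm2 (chr11:36944192-36944491, minus strand) hold only 3 and 2, so the windows shown for genes hit in both lists were not alike. The Dlg2 and Tenm2 windows lie inside the gene's span and not at its 5′ end.

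Most genes that carried a compact peak and have a window had a promoter window rich in CpG, as did most genes with any peak of the same list. The share of windows with at least 10 CpG was 86.6% over 194 windows of genes hit in series 1 and 79.5% over 112 windows of genes hit in series 2. Genes with any peak gave 83.6% and 80.6%, and all coding genes with a window gave 57.2%. The GC box letters GGGCGG, searched on either strand, were present in 66.0% and 64.3% of the windows of hit genes, in 65.0% and 63.3% for genes with any peak, and in 46.3% of all windows. The TATA box letters TATAAA, on either strand, were in 3.09% and 7.14% of the windows of hit genes, in 6.11% and 6.74% for genes with any peak, and in 13.3% of all. These shares describe the windows, were not tested, and give matches of letters only.

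Within the coding genes they touched, the series 1 peaks lay mostly in the downstream part and the series 2 peaks were spread almost evenly. Position could be read for 200 of 240 peaks in series 1 (83.3%) and 113 of 136 in series 2 (83.1%), those whose gene has a strand from a promoter window, and is given as the distance from the 5′ end in percent of the gene's span. The median was 64.0% (interquartile range 41.5 to 81.7%) in series 1 and 52.3% (26.7 to 78.3%) in series 2. Over all peaks of each list it was 60.9% and 58.7%. Of the series 1 peaks, 8.0% lay in the first 20% of the span and 27.5% in the last 20%, while all peaks of that list gave 11.8% and 25.5%. In series 2 these shares were 16.8% and 22.1%, against 12.7% and 24.6% over the list. The difference between the lists in this respect was not tested. Distance from the 5′ end had a median of 36 kb in series 1 and 43.9 kb in series 2.

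**Figure D1:**
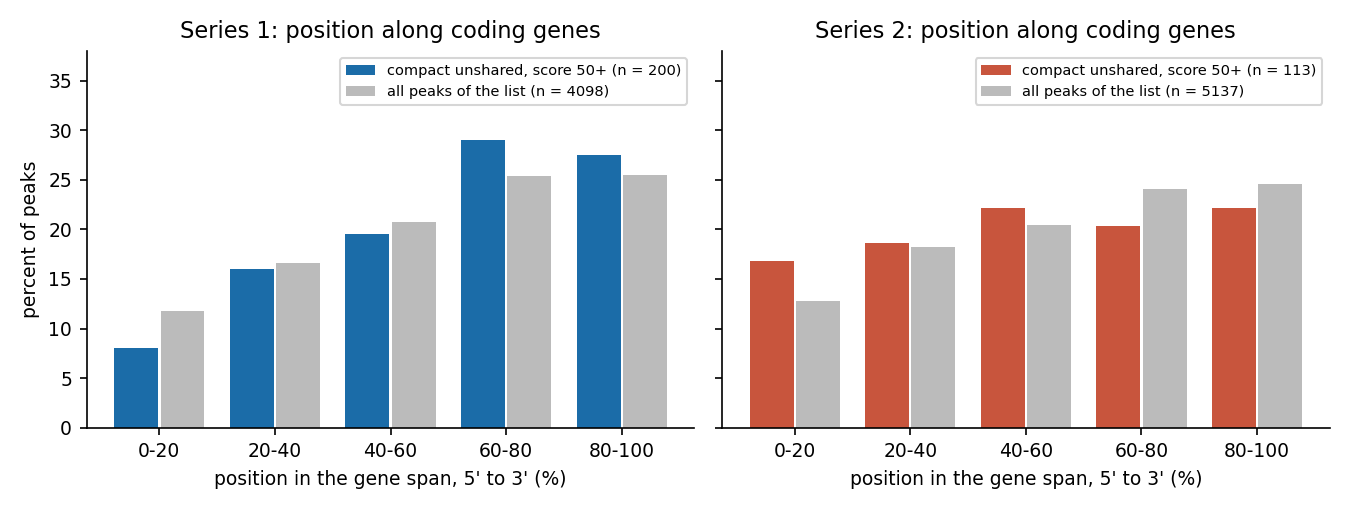
Position of compact unshared peaks of score 50 or more (coloured bars) and of all peaks (grey bars) along coding genes, in 5 equal classes of the gene span from 5′ to 3′ (x axis, percent), as percent of peaks with a known strand (y axis), for each series. In series 1 the coloured bars rise from 8.0% in the first class to 29.0% in the fourth and stand at 27.5% in the last; in series 2 they run from 16.8% to 22.1%.

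The chosen peaks of the 2 lists were of unlike shape, as were the whole lists. Series 1 had 453 peaks of score 50 or more, of which 410 were compact and 50 of those shared bases with series 2. Series 2 had 254, of which 243 were compact and 26 of those were shared. The remaining peaks had a median score of 62.5 in series 1 (interquartile range 55.0 to 78.0, highest 309) and 62.0 in series 2 (54.0 to 78.0, highest 195), where the list medians are 21 and 16. A score of 100 or more was reached by 35 and 23 of them. Their median width was 349 bp (interquartile range 257 to 436 bp) in series 1, below the 483 bp of its list, and 223 bp (220 to 229 bp) in series 2, where the list median is 222 bp. The lists include peaks wider than 1000 bp. Compact unshared peaks of a score under 50 had median widths of 412 bp in series 1 and 222 bp in series 2. Widths within 9 bp of the narrowest peak were found in 14.7% of the series 1 peaks, against 3.68% of that list, and in 63.1% of the series 2 peaks, against 65.6%. Among the chosen peaks the Spearman correlation between width and score was -0.050 over 360 peaks and 0.045 over 217 peaks, each set from 1 library.

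**Figure D2:**
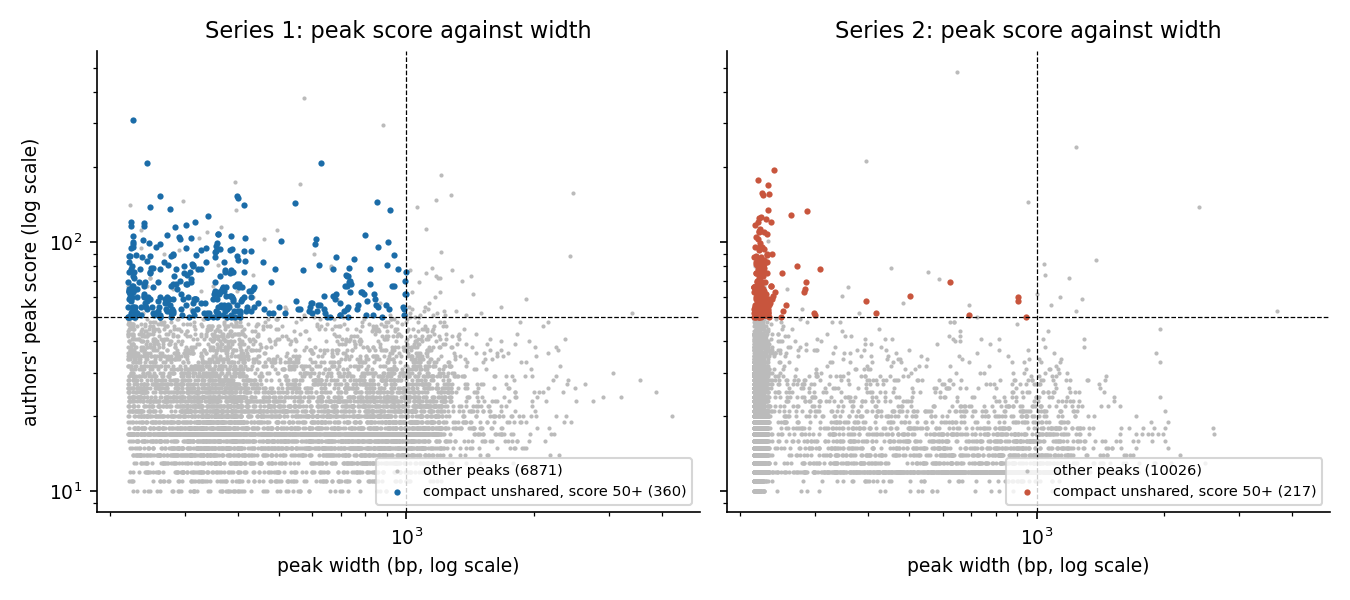
The authors' peak score (y axis, log scale) against peak width in bp (x axis, log scale) for series 1 and series 2, 1 point per peak. Coloured points are the 360 and 217 compact unshared peaks of score 50 or more, grey points all others, and dashed lines mark a score of 50 and a width of 1000 bp; the series 2 points crowd at the narrowest widths.

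The thresholds cut through a continuum. At a score of 50 there were 23 compact unshared peaks in series 1 and 10 in series 2, and at 49 there were 22 and 14. The series 1 peaks of score 50 included ones in Pard3b and Rpe, and a peak in Uxs1 missed with 49. By width, the peak in U2af2 was the widest to pass at 999 bp, followed by those in Senp3 at 996 bp and Ptdss1 at 994 bp, while peaks in Naa16 and Ndufa3 missed at 1019 bp each. In series 2 the widest were those in Nsun6 (942 bp), Serinc3 (905 bp) and Mfsd1 (902 bp), and a peak in Acad11 missed at 1048 bp. By distance, a series 1 peak of score 119 in the immunoglobulin heavy chain locus Igh (chr12:114586846-114587085) lay 47 bp from a series 2 peak of score 12. A series 1 peak in Ddx58, the RNA sensor RIG-I, lay 111 bp from a series 2 peak, and a series 2 peak of score 110 in Ccdc88a lay 101 bp from a series 1 peak.

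A peak of the other list lay within 1 kb of 6 of the series 1 peaks (1.67%) and 4 of the series 2 peaks (1.84%), and within 10 kb of 14.2% and 14.3%. Over all peaks these shares are 7.05% and 5.05% within 1 kb, and 21.8% and 15.6% within 10 kb, but those include the shared peaks that the rule leaves out. Compact unshared peaks of a score under 50 gave 2.12% and 1.5% within 1 kb, and 17.0% and 12% within 10 kb. The median distance to the nearest peak of the other list was 62.4 kb (interquartile range 23.4 to 153 kb) in series 1 and 100 kb (27.6 to 228 kb) in series 2, where the compact unshared peaks of lower score had medians of 57.7 and 98.9 kb. These distances were thus near those of other peaks that meet the same condition on sharing. That nearest peak was of ordinary strength for its own list. Next to series 1 peaks the nearest series 2 peak had a median score of 16.5, where the series 2 median is 16, and next to series 2 peaks the nearest series 1 peak had a median score of 21, which equals the series 1 median. A score of 50 was reached by 10 (2.78%) and 17 (7.83%) of these neighbours, against 2.48% of all series 2 and 6.26% of all series 1 peaks.

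By genomic context the compact peaks looked like the rest of their own list. In series 1, 250 of 360 touched a protein-coding gene (69.4%, exact binomial 95% interval 64.4 to 74.2%), against 71.2% of all peaks. In series 2 the count was 138 of 217 (63.6%, 56.8 to 70%), against 62.5%. No annotated gene was touched by 90 peaks in series 1 (25%, 20.6 to 29.8%), against 25.2%, and by 68 in series 2 (31.3%, 25.2 to 38%), against 32.6%. The others, 20 (5.56%, 3.43 to 8.45%) and 11 (5.07%, 2.56 to 8.89%), touched noncoding genes only, against 3.57% and 4.97% of all peaks. In all these cases the share over the list lay inside the interval. Intervals cover counting error only.

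Compact peaks of the same scores that did share bases with the other list lay almost entirely in coding genes. Of 50 in series 1, 49 touched a coding gene (98.0%, 89.4 to 99.9%), and of 26 in series 2, 24 did (92.3%, 74.9 to 99.1%). The unshared peaks of these scores gave 69.4% and 63.6%, and all these intervals cover counting error only. Compact unshared peaks of a score under 50 gave 68.7% and 60.4%, near the values of the high-score ones. Peaks of 1 library are not replicates of a condition, so these differences were not tested.

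**Figure D3:**
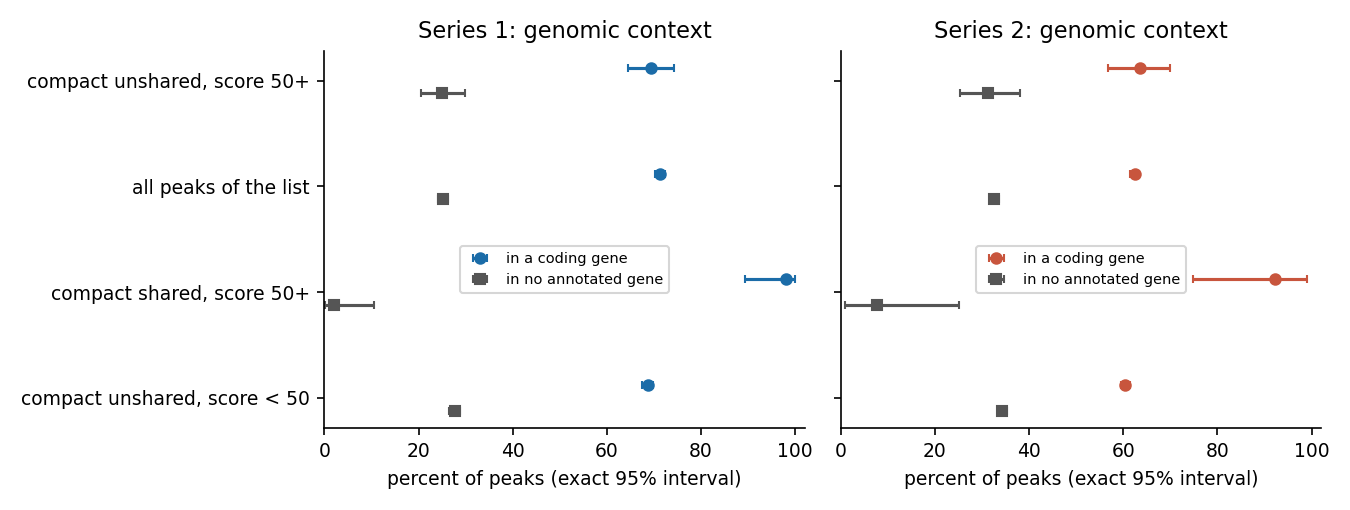
Percent of peaks (x axis) that touch a coding gene (circles) or no annotated gene (squares) in 4 sets of peaks of each series, with exact 95% binomial intervals for counting error. The compact unshared peaks of score 50 or more, at 69.4% and 63.6% in coding genes, sit beside the whole lists and below the compact shared peaks at 98.0% and 92.3%.

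The highest scores of series 1 fell both in genes and outside them. The highest, 309, belonged to a peak of 226 bp outside any annotated gene at chr7:29540965-29541190, 21.8 kb from the coding gene Sipa1l3. Scores of 207 were reached in Supt16, a subunit of the histone chaperone FACT, and in Tbc1d4, a GTPase-activating protein for Rab GTPases. Eya2, a transcriptional coactivator with phosphatase activity, and an intergenic peak 108 kb from Trps1 had 153 each. Adamts17, a secreted metalloprotease, followed with 151, Vps36, a subunit of the endosomal sorting complex ESCRT-II, with 145, and Abca1, a cholesterol exporter, with 143. A peak 296 kb from Btbd3 had 141, and Abi1, an adaptor of the actin-nucleating WAVE complex, had 138. Of these 10 peaks, 7 lay in a coding gene, against 71.2% of all series 1 peaks.

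In series 2 the highest score was 195, in Slc35b4, a nucleotide sugar transporter, at chr6:34164754-34164993. Slc35b4 held no series 1 peak. The next, 178, lay outside genes at chr2:98662238-98662457, 4207 bp from a series 2 peak of score 483 and 4269 bp from a series 1 peak of score 378, the highest score of each list. Those latter peaks overlap each other and were therefore not among the chosen ones. Scores of 170, in the noncoding gene Gm46516, 156 and 154 also lay outside coding genes, as did a peak of 134 that lies 1.58 kb from H2-Aa, the alpha chain of an MHC class II molecule. Coding genes among the first 10 also included Cacna1d (135), Erc1 (128), a scaffold of the ELKS family, and Robo2 (126), a receptor for Slit guidance cues. In all, 5 of the 10 lay in a coding gene, against 62.5% of all series 2 peaks. At a score of 100 or more, 27 of 35 peaks in series 1 and 12 of 23 in series 2 touched a coding gene. Among all peaks of such a score, shared and wide ones included, the counts were 42 of 54 and 14 of 29.

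The peaks touched 243 coding genes in series 1 (1.11% of 21887) and 139 in series 2 (0.635%). These genes were long. Their median length was 69.9 kb in series 1 and 103 kb in series 2, against 58.0 and 62.0 kb for genes with any peak of the same list and 17.2 kb for all coding genes. A longer gene is more often hit by any peak, and the part of length in the counts below was not tested. Of the 243 genes, 112 (46.1%, 39.7 to 52.6%) also held a series 2 peak elsewhere in their span, against 51.6% of all genes with a series 1 peak. Of the 139 genes, 71 (51.1%, 42.5 to 59.6%) held a series 1 peak, against 43.2%. The shares over all genes with a peak include genes counted through shared peaks, which the rule leaves out. Genes with a compact unshared peak of a score under 50 gave 50.4% and 41.3%. The 235 series 2 peaks in genes hit in series 1 had a median score of 17, and the 135 series 1 peaks in genes hit in series 2 had a median of 22, where all peaks in coding genes have medians of 16 and 21. A score of 50 or more occurred in 2.55% and 5.93% of them, against 2.63% and 6.48% of all peaks in coding genes.

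In all, 5 coding genes carried a compact high-score peak of each list, among the 243 and 139 genes touched. Over all coding genes, 1.11% held such a peak of series 1 and 0.635% one of series 2. The overlap was not tested. The peaks of the 2 lists lay at different places in each gene, as the rule requires. Supt16 (chromosome 14, 52160419 to 52197239, minus strand) had its series 1 peak of score 207 at 21.0 kb from the 5′ end and its series 2 peak of score 69 at 29.5 kb. Between them lay a series 1 peak of score 15 and a series 2 peak of score 17, and the 4 peaks ran from 56.9 to 80% of the span. Kat2b (chromosome 17, 53566774 to 53672721, plus strand) encodes a histone acetyltransferase. It had a series 1 peak of score 54 at 46.7 kb and series 2 peaks of scores 18 and 50 at 60.4 and 79.5 kb, the latter exactly at the threshold.

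Eya2 (chromosome 2, 165595028 to 165771727) had a peak of score 153 in series 1 at chr2:165710984-165711245 and one of score 54 in series 2 at chr2:165734889-165735105. Between these lay a peak found in both lists, with scores of 39 and 28. Dlg2, a synaptic scaffold gene of 1973 kb, had series 1 peaks of scores 98 and 78 at 93.4 and 94.1% of its span and a series 2 peak of score 96 at 88.1%. The nearest of these were 104 kb apart. In Tenm2, which encodes an adhesion protein of the teneurin family over 1230 kb, the series 1 peak of score 63 lay at 91.5% of the span and the series 2 peak of score 85 at 51.9%, 488 kb away.

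**Figure D4:**
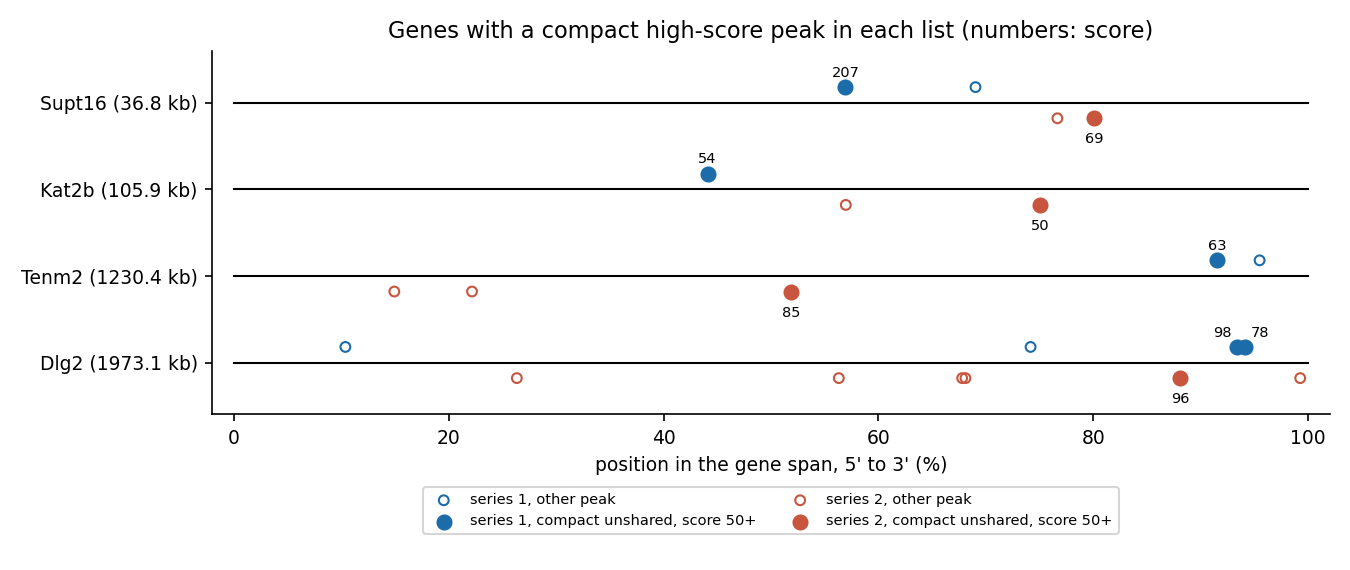
Peaks of series 1 (blue, above the line) and series 2 (red, below the line) along 4 genes with a compact unshared peak of score 50 or more in each list, by position in the gene span from 5′ to 3′ (x axis, percent). Filled points with their score are the compact high-score peaks and open points all other peaks; in Supt16 and Kat2b the series 2 peak lies downstream of the series 1 peak, and in Tenm2 upstream of it. Eya2 is left out because no strand was at hand.

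Some genes held repeated hits of the same list. In series 1, Arhgef10l, a guanine nucleotide exchange factor gene of 152 kb, held 3 compact peaks, of scores 52, 52 and 89, at 18.4, 39.8 and 62.5% of its span, with 3 further series 1 peaks of scores 23 to 37. The other genes with more than 1 held 2 each: Dlg2, Rbl2, Zfat, Rbfox1, Kalrn and Adamts19. Rbl2, which encodes the pocket protein p130 of the retinoblastoma family, had scores of 62 and 78 at 20 and 30.3 kb from the 5′ end, and it is much shorter than most of this group at 53.8 kb. Rbfox1, an RNA-binding regulator of alternative splicing with a span of 1528 kb, had scores of 54 and 59 at 87.3 and 87.4% of the span. Kalrn, a guanine nucleotide exchange factor, had 53 and 54 at 92.3 and 43.0% of a span of 604 kb. In series 2, only Robo2 held more than 1, with scores of 96 and 126 at 44.2 and 15.7% of a span of 1555 kb.

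Chromatin and elongation regulators, a list of 94 genes with a median length of 52.9 kb, were hit at 7 genes by series 1 peaks (7.45%) and at 5 by series 2 peaks (5.32%). Over all coding genes these shares are 1.11% and 0.635%. The list is also rich in peaks of any kind, with 62 and 60 genes hit. Among genes with any peak, 11.3% and 8.33% of this list carried a compact high-score one, against 6.80% and 3.26% of all coding genes. The list was chosen with earlier results of these data known, so these shares are descriptions, and the differences were not tested. Besides Supt16 and Kat2b, the series 1 genes were Chd7 (score 106), a chromatin remodeller, Brpf3 (105), a scaffold of histone acetyltransferase complexes, Brd2 (67), a bromodomain reader of acetylated histones, Kat6b (67), an acetyltransferase, and Smarca5 (52), the ISWI ATPase. The series 2 genes included Smarca2 (125), a catalytic ATPase of SWI/SNF complexes, and Chd2 (55), a remodeller.

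In 3 of these genes, picked after their values were seen, the other list had peaks nearby. Scores cannot be compared between the lists, whose medians are 21 in series 1 and 16 in series 2. The Smarca2 peak of score 125 lay 489 bp from a series 1 peak of score 22, at 12.1% of the span. Brd2 is short, 10.8 kb, and its series 1 peak lay at 95.2% of the span, 2.46 kb from a series 2 peak of score 14. Smarca5 held 4 series 1 and 5 series 2 peaks over 39.5 kb, and its peak of score 52 lay 2.52 kb from a series 2 peak of score 14.

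Splicing factors, 78 genes with a median length of 21.5 kb, were hit in 4 cases in each series (5.13% each). Over all coding genes the shares are 1.11% and 0.635%. Among genes with any peak, 10.5% and 9.52% of this list carried one, against 6.80% and 3.26% of all coding genes. This list too was chosen with earlier results of these data known, and the differences were not tested. In series 1 the genes hit were U2af2 (score 76), which encodes the larger chain of the U2AF splice-site factor, Mbnl2 (73), a muscleblind splicing regulator, Hnrnpul1 (55), an hnRNP, and Srsf4 (53), an SR protein. In series 2 they were Prpf19 (67) and Plrg1 (61), both components of the Prp19 complex of the spliceosome, Ptbp2 (63), a polypyrimidine tract-binding repressor, and Rbfox2 (62). No gene of this list carried one in both series, but with 4 of 78 genes hit in each this says little. Ptbp2 also held a series 1 peak of score 72 that shares no base with a series 2 peak. At a width of 1189 bp that peak missed only the width limit. The list is not complete: Rbfox1, described above, is not on it, nor are the spliceosome genes Snrpe (score 53) and Snw1 (57), which each held a series 1 peak. U2af2 was densely covered in series 1, with 5 peaks over 19.1 kb, and its compact peak lay 1.26 kb from the single series 2 peak. Prpf19 and Rbfox2 had no other peak in either list, and their nearest series 1 peaks lay 159 and 229 kb away. Plrg1 held 2 series 1 and 5 series 2 peaks over 16.8 kb.

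The medullary epithelial programme, 64 genes, had 2 genes hit in series 1 (3.13%) and 1 in series 2 (1.56%). Dst (score 107), which encodes dystonin, the plakin that ties keratin filaments to hemidesmosomes, held its series 1 peak at 90.8% of its span, 1.87 kb from a series 2 peak of score 13. Itgb4 (score 63) encodes the integrin beta 4 chain of hemidesmosomes and had no series 2 peak. Lama3 (score 75, series 2) encodes the alpha chain of the laminin that this integrin binds, and its peak lay 35.2 kb from the nearest series 1 peak. Among genes of this list with any peak, 8.0% and 3.70% carried a compact high-score one, near the 6.80% and 3.26% of all coding genes with any peak.

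Other gene lists were hit once or not at all. Rpl4 (score 81, series 1), a protein of the large ribosomal subunit, was the only hit among 94 ribosomal and housekeeping genes, at 83.2% of a span of 5.18 kb. Syt1 (55, series 1), the calcium sensor synaptotagmin 1, was the only one among 75 tissue-restricted antigen genes, and Fbn1 (55, series 1), which encodes fibrillin 1, the only one among 11 fibroblast genes. None was found in 39 genes of mature mTEC, MHC and costimulation, 25 thymocyte, 10 B cell, 13 myeloid and dendritic, 10 endothelial and 10 cortical epithelial genes. With background shares of 1.11% and 0.635%, counts of 0 in lists of this size say little. The markers of cell types lay under peaks of any kind at shares that do not single out the labelled cells. Of 12 markers of medullary epithelium (16.7% and 25% with any peak, against 16.3% and 19.5% of all coding genes), Krt5 and Trp63 had a series 1 peak and Krt5, Relb and Cd80 a series 2 peak, none of them among the compact high-score ones, while Epcam, Krt14, Krt8, Foxn1 and Aire had none. Of 6 markers each, B cells had 1 and 3 with a peak in series 1 and series 2 (Ebf1 in series 1; Cd79b, Ebf1 and Pax5 in series 2), myeloid and dendritic cells 2 and 2, fibroblasts 2 and 1, and cortical epithelium and endothelium 1 and 1. Of 12 thymocyte markers 0 and 1 had one. Fbn1 was the only one of all these markers with a compact high-score peak that is unshared. Its highest series 1 peak, of score 141, shares bases with a series 2 peak of score 38 and was therefore left out by the rule.

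**Figure D5:**
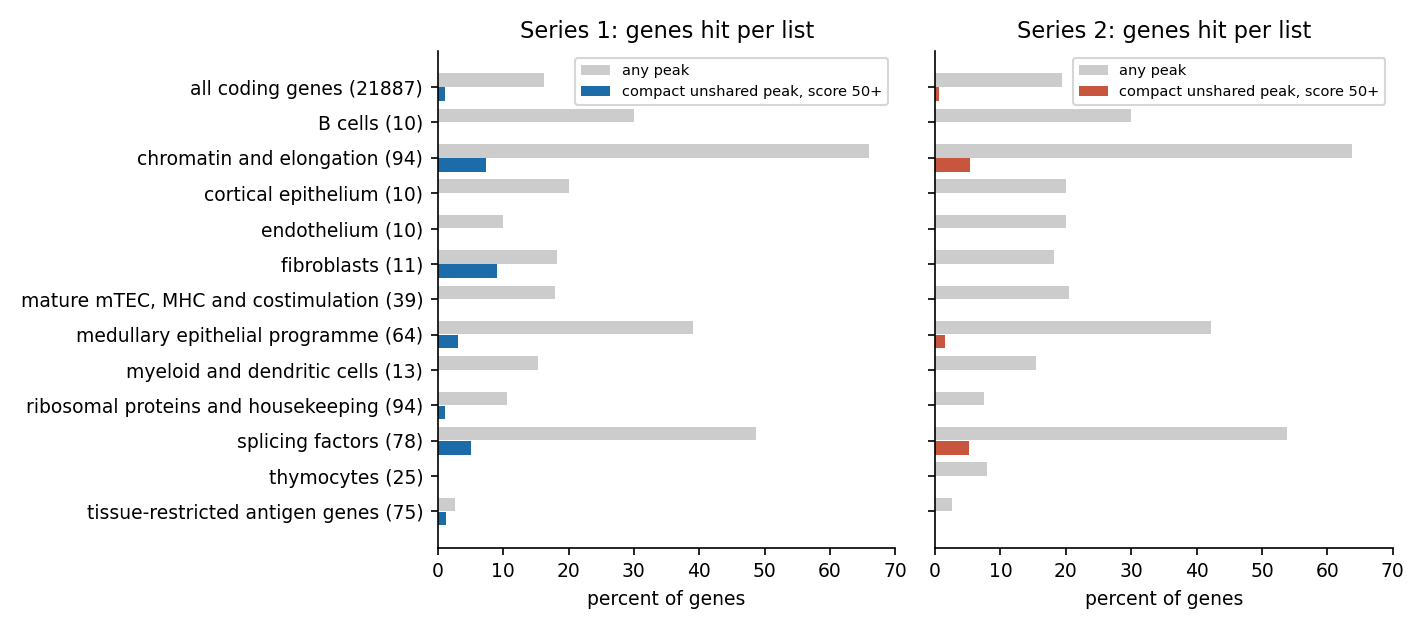
Percent of the genes of each list (x axis) that held any peak (grey bars) or a compact unshared peak of score 50 or more (coloured bars) in series 1 and series 2; the number of genes is in brackets. Chromatin and elongation regulators reached 7.45% and 5.32% and splicing factors 5.13% in each series, against 1.11% and 0.635% of all coding genes. The lists were chosen with earlier results of these data known, and no difference was tested.

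Over single genes the compact peaks covered little. The largest share in series 1 was 11.1% of Senp3, a SUMO protease gene of 8.98 kb, followed by 9.46% of Ngdn, 7.74% of Aarsd1, 6.72% of Brd2 and 5.57% of Otx1, a homeobox gene. In series 2 it was 4.2% of Mfsd1, a transporter of the major facilitator family, 4.14% of Serinc3, 2.72% of Grb7, 2.62% of Mmp14, a membrane-anchored matrix metalloprotease, and 2.22% of Meaf6, a subunit of histone acetyltransferase complexes. The Grb7 peak also lies in the neighbouring gene Mien1, so it counts for both. Senp3, Ngdn, Aarsd1, Otx1, Mfsd1, Serinc3, Grb7 and Meaf6 each held no peak other than this one in either list.

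Outside coding genes, the 20 series 1 peaks in noncoding genes made 19 pairs of peak and gene with long noncoding RNA genes. The 11 of series 2 made 10 such pairs. A peak in several genes counts once for each. No count over all peaks is at hand, so these pairs do not set the compact peaks apart. One series 1 peak, of score 50 at chr14:44947437-44947665, covered all 69 bases of the microRNA hairpin Mir327 (chr14:44947443-44947511, minus strand), inside the long noncoding RNA genes Gm16976 and Gm41142. It is the only hairpin under a compact peak in either list on the chromosomes used, and its RefSeq sequence is printed because it is annotated sequence that a peak fully covers.
Mir327: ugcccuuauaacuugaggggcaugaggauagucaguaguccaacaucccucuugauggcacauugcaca

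Peaks without any annotated gene were a median of 26.4 kb from the nearest one in series 1 and 37.0 kb in series 2, against 26.5 and 21.2 kb for all such peaks of each list. More than 100 kb lay between peak and gene for 11 of 90 in series 1 (12.2%) and 14 of 68 in series 2 (20.6%), against 16.8% and 15.1% of all such peaks, so that series 1 was below and series 2 above its list. This was not tested. The farthest in series 1 had a score of 68 and lay 366 kb from the noncoding gene 4930556G01Rik on chromosome 4, and the next had 76 and lay 263 kb from Hsfy2 on chromosome 1. Peaks of 107, 66 and 59 followed at 230, 225 and 181 kb from pseudogenes on chromosomes 16, 13 and 9. The farthest in series 2 had a score of 53 and lay 283 kb from Gm35216 on chromosome 6. Peaks of 64 and 108 lay on chromosome 2, 278 and 244 kb from the nearest gene, and both have Dhx35 as their nearest coding gene. A peak of 66 lay 266 kb from Tex13c1 on chromosome X, and one of 60 lay 195 kb from a transfer RNA gene on chromosome 11.

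Compact high-score peaks were found on every autosome and on chromosome X in both lists, while no peak on chromosome Y met the rule. Across the autosomes and X, the share of a chromosome's series 1 peaks that met the rule ran from 2.65% on chromosome 3 to 7.14% on chromosome X. In series 2 it ran from 1.42% on chromosome 18 to 3.62% on chromosome 3. Over the whole lists the shares were 4.98% and 2.12%. Chromosome 3 was thus at opposite ends of the lists, with 10 of 378 peaks in series 1 and 20 of 553 in series 2. It was picked as an extreme after the values were seen, the counts are small, and the difference was not tested. Clustering within a list was not pronounced, with another peak of the same list within 10 kb for 15.8% of the series 1 peaks and 13.8% of the series 2 peaks, against 17.3% and 14.7% over the lists.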

How the data were processed

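Each ChIP library came with 1 list of broad peaks. Per the submitters' processing notes the tools were MACS2, Bowtie2 and SAMtools, with no versions given, and the build was mm10. Peak names in the files show that series 1 was called against 2 inputs together and series 2 against 1, per library and not pooled. The authors deposited for each peak its position and a whole-number score whose meaning is not stated. The lists hold no read counts, so depth is unknown.

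Starts were converted to 1-based positions. The members and gene lists were chosen with earlier results of these data known. Peaks were matched to spans of 21887 coding genes and all other genes of RefSeq GRCm38.p6 (at least 1 base, 1 span per gene, no exons). Strand came from the promoter windows, present for 17492 coding genes and not used on chromosome 18. Each list is 1 library, so no tests were run. Shares have exact binomial 95% intervals, and a count of 0 is given the limit of 3 counts. Named genes are the 10 highest scores per list, genes hit repeatedly or in both lists, genes of the 12 lists, peaks at the thresholds, and the best covered and farthest 5. Peaks nearest the other list and windows nearest a peak were added after their values were seen. Some genes that the rule names are not reported here. Overlap code was tested on simulated data. Python 3.11.15, numpy 2.4.6, pandas 2.3.3, scipy 1.17.1 and matplotlib 3.10.9 were used.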

Additional observations from a re-analysis of the deposited data

How the results depend on the processing

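Of 86 values recomputed under other settings, 66 stayed within 1.5 times the reported count or inside the 95% interval of the reported share. Counts followed the score minimum. At 40, 60 and 100 the rule took 688, 208 and 35 peaks touching 472, 140 and 27 coding genes in series 1, and 490, 119 and 23 peaks touching 302, 72 and 12 genes in series 2. At 100 the share in coding genes was 77.1% in series 1 and 52.2% in series 2, the share in no gene 20% and 39.1%, and the share of hit genes in series 2 that held a series 1 peak 66.7%. With gene spans extended by 5000 bp, 75% of series 1 peaks touched a coding gene, and 19.2% and 24.4% of the peaks touched none. A narrower and a wider width limit, a gap of 1000 bp to the other list, chromosomes 1 to 19 alone and assignment by midpoint moved none of the values past these bounds. No paired analysis was possible because each list comes from 1 ChIP library and no test was run. Leaving out a replicate removes a whole list, so it was not run.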
